A study of Mus musculus with 4 samples.

Results

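The genes described here are 9 mouse genes of arginine and citrulline metabolism, Cps1, Otc, Oat, Aldh18a1, Ass1, Asl, Arg2, Odc1 and Acy1, out of 18194 genes that had a probe set of their own on the array. They were read as all 19 probe sets whose platform annotation names one of them, of 45101 in the table, and for each gene the probe set with the highest mean signal over the 4 arrays, its brightest, stands first. They were chosen by their place in the pathway with the signal differences between the groups already known. Their differences are therefore given as a description. Where the fit across all probe sets passed its threshold at one of them this is noted, but it is no independent test and nothing rests on it. Of the 19 probe sets, 18 passed the filter on low signal described below, among them the brightest of all 9 genes.

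Paneth cells, which sit among the stem cells of the small intestinal crypt and secrete antimicrobial granules, were captured by laser from frozen small intestine of male NMRI mice aged 8 weeks. Mice of one group stayed germ-free until death. The other, also raised germ-free, carried for its last 10 days a gut flora taken from a conventionally raised mouse (conventionalized). RNA of 3 mice made up 1 pool per group. Each pool was amplified 2 times, from 10 ng each time, and each product went to its own Affymetrix mouse array, so arrays of a group share their mice and hold no spread between animals.

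In the small intestine, glutamine and proline carbons reach ornithine inside mitochondria, and ornithine is turned into citrulline there by carbamoyl phosphate synthetase and ornithine transcarbamylase. Citrulline is released by the adult gut, for the kidney to turn into arginine, or is made into arginine in the cytosol by argininosuccinate synthase and lyase. Arginase splits arginine into ornithine and urea, and ornithine decarboxylase leads ornithine into polyamines.

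Arg2, the mitochondrial arginase, and Acy1, the cytosolic aminoacylase that frees amino acids from their N-acetyl forms, were the genes with the largest differences. Acy1 is not among the steps laid out above. Arg2 was 2.93-fold and Acy1 5.60-fold lower in the conventionalized pool than in the germ-free pool, and on both genes every conventionalized array lay below every germ-free array. The enzymes that make citrulline from ornithine differed by less than this: Otc had a log2 difference of -0.48 and Cps1 one of 0.29. Odc1, which competes for the same ornithine, differed by -0.19, less than the fitted standard error for its signal level.

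Promoter sequence was at hand for 6 of the 9 genes, from RefSeq on GRCm38.p6, as windows of 300 bases that run from 250 before to 50 after the gene start, printed on the gene's own strand. Shown are Acy1, Aldh18a1 and Otc, since their brightest probe sets lay lower on both conventionalized arrays. Arg2 lay lower on both as well, but no window was at hand for it, nor for Cps1 or Asl. Capitals mark each E-box, CACGTG, which reads the same on both strands. The window of Acy1 is chr9:106438187-106438486 on the minus strand, that of Aldh18a1 is chr19:40588414-40588713 on the minus strand, and that of Otc is chrX:10252055-10252354 on the plus strand.
Acy1: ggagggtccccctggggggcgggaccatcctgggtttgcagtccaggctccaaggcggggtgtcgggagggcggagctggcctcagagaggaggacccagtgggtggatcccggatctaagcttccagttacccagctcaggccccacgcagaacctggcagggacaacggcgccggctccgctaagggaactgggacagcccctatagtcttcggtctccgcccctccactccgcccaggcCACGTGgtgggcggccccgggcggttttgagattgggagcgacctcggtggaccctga
Aldh18a1: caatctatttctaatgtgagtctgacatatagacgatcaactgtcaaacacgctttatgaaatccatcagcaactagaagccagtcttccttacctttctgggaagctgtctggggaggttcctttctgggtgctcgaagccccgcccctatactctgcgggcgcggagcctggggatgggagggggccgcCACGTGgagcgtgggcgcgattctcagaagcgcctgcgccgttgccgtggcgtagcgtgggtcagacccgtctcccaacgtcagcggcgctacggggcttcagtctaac
Otc: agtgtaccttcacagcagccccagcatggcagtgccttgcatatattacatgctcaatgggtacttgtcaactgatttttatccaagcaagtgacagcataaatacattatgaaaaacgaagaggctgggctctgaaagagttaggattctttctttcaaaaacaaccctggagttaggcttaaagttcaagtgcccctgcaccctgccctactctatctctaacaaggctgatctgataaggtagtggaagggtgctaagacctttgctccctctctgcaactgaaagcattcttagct

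The E-box began 8 bases before the gene start in Acy1 and 59 bases before it in Aldh18a1, and the window of Otc held none. Ass1 also held 1, at 36 bases before the start, while Oat and Odc1 held none. Of all 32851 promoter windows of this length, 7.15% held an E-box. A GC box, CCGCCC on either strand, was found 6 times in Acy1, 4 times in Odc1, 2 times in Oat, 1 time each in Ass1 and Aldh18a1 and not in Otc, beside 35.7% of all windows with at least 1 match. Some of these lie close to the E-box, but none overlaps it. No window of the 6 genes held the TATA box TATAAA (13.6% of all windows) or the HNF4-type motif CAAAGTCCA (0.475% of all windows), searched on both strands. The window of Otc had a GC content of 44.3%, below that of the other 5, which ran from 58.3% for Aldh18a1 to 78.0% for Odc1.

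Signals are the linear intensities deposited by the authors, and log2 differences are conventionalized minus germ-free on log2(intensity + 32), a scale that shrinks the change of dim probe sets such as that of Acy1. Each ± is the standard error of limma's fit (SE, 2 arrays per group), which is shared by probe sets of like signal. It was set by the signal level and not by the duplicates of the single probe set. Called means an adjusted p (Benjamini-Hochberg) under 0.05 over the 22491 probe sets tested, those with a mean signal above 113.9. In that fit 75 probe sets, 0.333%, were called, 27 higher and 48 lower in the conventionalized pool. Counted by the brightest probe set, 43 of 12111 genes, 0.355%, were called. An exact permutation test of a single value cannot go below p = 0.333 here, because 4 arrays can be split into 2 and 2 in only 3 ways. Between duplicate arrays the log2 differences had an SD of 0.83 for germ-free and 1.05 for conventionalized cells. Conventionalized array 2 correlated with the other arrays at 0.754 to 0.779 across probe sets, lower than the 0.855 to 0.890 among the other 3. Germ-free arrays were processed on fluidics station 1 and conventionalized arrays on fluidics station 2, so group and station cannot be told apart. In captured tissue, fewer cells of a type and less RNA per cell cannot be told apart either.

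Of the 9 genes, 1, Acy1, was called at its brightest probe set, lower in the conventionalized pool, where 0.355% of all genes were called and 0.248% called lower. Acy1 entered the fit through its germ-free arrays alone, since its conventionalized signals lay under the filter value, and its call was lost with no filter. Nothing is read from this count, as the contrast was known when the genes were chosen. The groups did not overlap for 4 of the 9, Arg2, Acy1, Otc and Aldh18a1, all lower in the conventionalized pool, where 32% of all genes did not overlap and 16.1% lay lower. In all, 7 of the 9 had a difference below 0 and the median was -0.48, while the median over all 12111 genes was 0.00 and 6053 of them lay below 0. Over all 19 probe sets, the groups were apart and lower in 7, apart and higher in 1 and overlapping in 11, beside 31.1% of all tested probe sets with groups apart.

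**Figure D1:**
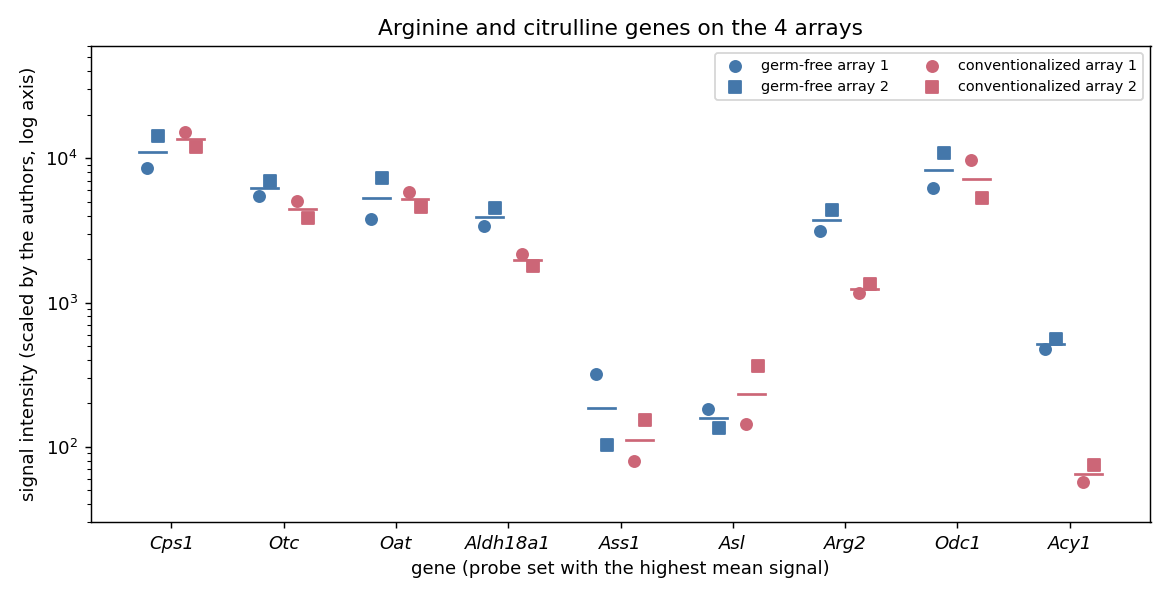
Signal intensity (log axis) of the brightest probe set of each of the 9 genes on the 2 germ-free (blue) and the 2 conventionalized (red) arrays; circles are array 1, squares array 2, and bars are group means on the log2 scale. Arg2 and Acy1 stand lower on both conventionalized arrays, Aldh18a1 and Otc by less, and the other 5 genes overlap between the groups; heights are not comparable between genes.

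Citrulline synthesis begins with Cps1, which makes carbamoyl phosphate in the mitochondrion and has 1 probe set on the array (gene identifier 227231). It read 8603 and 14163 on the germ-free arrays, with 15297 and 11973 on the conventionalized ones. The groups overlapped, and the germ-free duplicates lay farther apart than the group means, with a log2 difference between groups of 0.29 ± 0.61. Without germ-free replicate 1 that difference was -0.07.

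Otc (identifier 18416) joins carbamoyl phosphate with ornithine to give citrulline. Its brightest probe set, 1436615_a_at, read 5512 and 6954 on the germ-free arrays, with 5083 and 3851 on the conventionalized ones. Both conventionalized arrays were lower, by a log2 difference of -0.48 ± 0.49, about the SE that the fit gives to probe sets of like signal. Its own duplicates lay 0.33 (germ-free) and 0.40 (conventionalized) apart on the log2 scale. A second probe set, 1420525_a_at, read 3048 and 5989 against 4928 and 2839, so the groups overlapped, and the difference was -0.19 ± 0.46. The last one, 1425540_at, was under the signal filter at 8.40 and 84.2 against 18.8 and 16.9.

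Ornithine for this step can come from glutamate, by way of Aldh18a1 and then Oat. Aldh18a1 is the synthase that turns glutamate into pyrroline-5-carboxylate, and Oat, ornithine aminotransferase, turns that into ornithine. Arginase, described below, gives ornithine from arginine instead. Oat (identifier 18242) had signals of 3771 and 7328 on the germ-free arrays, with 5850 and 4591 on the conventionalized ones. The conventionalized arrays lay between the germ-free ones, and the difference was -0.02 ± 0.48. It was 0.46 when germ-free replicate 2 was left out and 0.15 when conventionalized replicate 2 was.

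Aldh18a1 (identifier 56454) had 5 probe sets, of which the brightest, 1437325_x_at, read 3388 and 4548 on the germ-free arrays, with 2155 and 1802 on the conventionalized ones. Each conventionalized array was at least 1.56-fold below each germ-free array, and the log2 difference of -0.98 ± 0.44 was larger than the fitted standard error. The next, 1435855_x_at, also lay lower on both arrays, at 1654 and 1855 against 1470 and 665, a difference of -0.80 ± 0.42. The other 3 overlapped between groups and differed by -0.54 to -0.19. One of them, 1415836_at, read 7.80 on conventionalized array 1 and 370 on conventionalized array 2, beside 120 and 190 in germ-free cells, so its duplicates differed far more than the groups. The mean over the 5 probe sets was -0.54. Probe sets with the suffix _x_at can bind related transcripts.

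The pair of cytosolic enzymes that turn citrulline into arginine gave low signals. Ass1, argininosuccinate synthase (identifier 11898), had 1 probe set of its own, 1459937_at, at 320 and 103 on the germ-free arrays, with 79.2 and 152 on the conventionalized ones, a difference of -0.60 ± 0.80. The other, 1416239_at, is annotated to both Gm5424 and Ass1 and cannot be assigned to either. It read 112 and 36.0 against 177 and 318, higher on both conventionalized arrays, with a difference of 1.45 ± 0.86. The difference at 1459937_at changed sign without germ-free replicate 1, to 0.09. Asl, argininosuccinate lyase (identifier 109900), read 183 and 135 on the germ-free arrays, with 145 and 364 on the conventionalized ones. Conventionalized array 2 alone stood above the rest, and the difference of 0.48 ± 0.65 was -0.10 without it.

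Arginine breakdown is represented by Arg2 (identifier 11847), the arginase of mitochondria. Its brightest probe set, 1438841_s_at, had signals of 3147 and 4401 on the germ-free arrays, with 1156 and 1349 on the conventionalized ones. Every conventionalized array was at least 2.30-fold below every germ-free array, a separation of 2-fold or more that 1.02% of all genes reached in this direction. The log2 difference was -1.55 ± 0.42. Its second probe set, 1418847_at, read 2150 and 2931 against 570 and 992, a difference of -1.70 ± 0.42 or 3.24-fold lower, with at least 2.13-fold between any pair of arrays. The 2 probe sets gave nearly the same difference, although the second was called and the brightest was not. Over the 4 arrays left out in turn, the difference at the brightest probe set ran from -1.79 to -1.31. The call of the second was lost without germ-free replicate 1 (-1.92), germ-free replicate 2 (-1.47) or conventionalized replicate 1 (-1.31), and also with quantile normalization (-1.63), with median centring (-1.80), with the replicate block and without a variance trend (both -1.70). Arg1, the cytosolic arginase of liver, read 19.1 and 8.00 on the germ-free arrays, with 5.70 and 18.6 on the conventionalized ones, all under the pseudocount of 32, and was not tested.

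Odc1 (identifier 18263), ornithine decarboxylase, the entry to polyamine synthesis, had 3 probe sets. The brightest, 1437711_x_at, read 6254 and 10832 on the germ-free arrays, with 9749 and 5313 on the conventionalized ones, a difference of -0.19 ± 0.53 with overlapping groups. It changed sign to 0.20 without germ-free replicate 2 and to 0.24 without conventionalized replicate 2. The second, 1438761_a_at, read 1839 and 4005 against 3502 and 2146 and differed by 0.01 ± 0.43. The third, 1427364_a_at, read 1240 and 1116 against 1017 and 823, lower on both conventionalized arrays, by a difference of -0.35 ± 0.42.

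Acy1 (identifier 109652) had the largest difference of the 9 genes. Its only probe set, 1419173_at, read 473 and 555 on the germ-free arrays, with 56.9 and 74.4 on the conventionalized ones. Duplicates were close, each pair within 0.26 on the log2 scale, and every conventionalized array was at least 4.75-fold below every germ-free array on the log2(intensity + 32) scale. The difference was -2.49 ± 0.64, or 5.60-fold lower. With conventionalized signals this dim, the size moved with the pseudocount, to -2.83 with the smaller and -1.73 with the larger alternative. The call was lost without germ-free replicate 1 (-2.59), without germ-free replicate 2 (-2.38), with no signal filter or with the brightest 25% of probe sets alone (both -2.49), with quantile normalization (-2.46), and with the replicate block or no variance trend (both -2.49). No alternative run changed the sign of Acy1 or of Arg2.

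**Figure D2:**
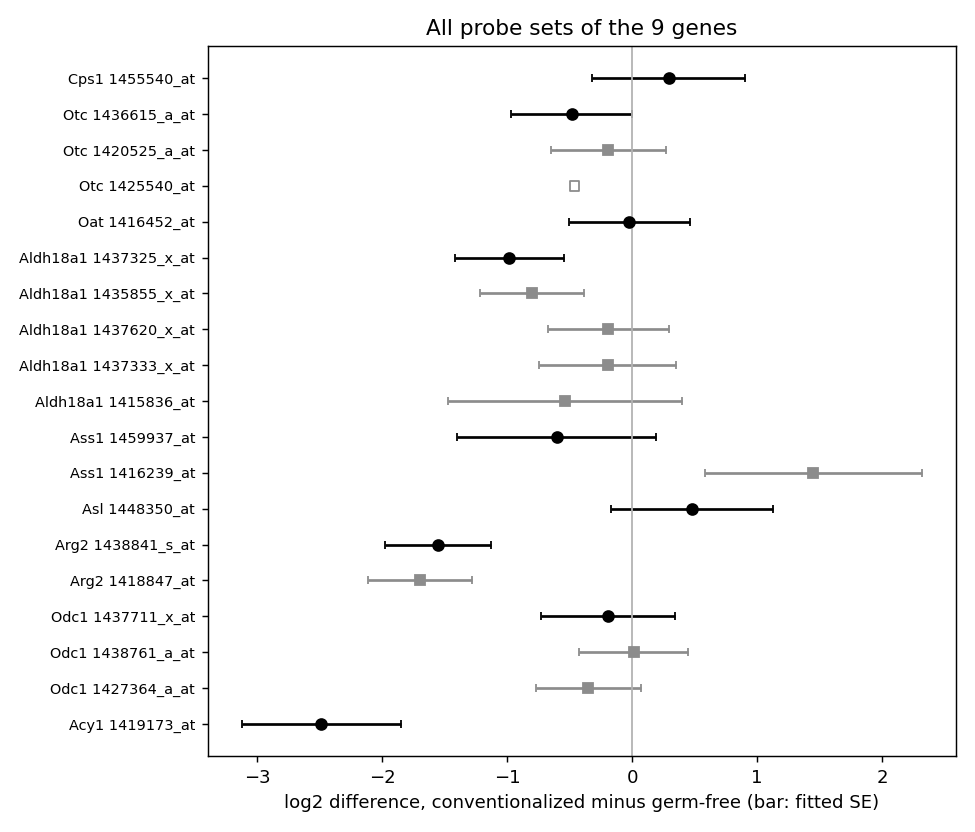
Log2 difference, conventionalized minus germ-free, for all 19 probe sets of the 9 genes, with the fitted standard error as bars; black circles are the brightest probe set of a gene, grey squares the others, and the open square is the Otc probe set that was not tested. Both Arg2 probe sets lie at -1.55 and -1.70 and Acy1 at -2.49, whereas the probe set of Ass1 alone lies at -0.60 and the one shared with Gm5424 at 1.45.

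By the distance between profiles centred on their own mean over the 4 arrays, the genes most like Acy1 were Rdh7, a retinol dehydrogenase, at a distance of 0.16 log2 units, Oas1e (0.41) and Trdmt1 (0.46). Those most like Arg2 were Anxa13, an annexin of epithelial cells (0.10), Tob1 (0.11) and Scin, an actin-severing protein (0.15). Rdh7 read 3153 and 3592 on the germ-free arrays, with 464 and 658 on the conventionalized ones, and Anxa13 read 4483 and 6358 against 1651 and 1792. These likenesses rest on 4 arrays and mainly restate the difference between the pools.

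The pathway around these genes was read from 5 further lists with 70 genes, of which 62 had a probe set of their own and 51 were tested. Limma called 0 of the 51 in either direction, beside 0.355% of all genes, and 6 had an unadjusted p under 0.05, beside 5.94% of all genes. In the fit without a variance trend the counts were again 0 called and 2 with an unadjusted p under 0.05 (4.21% of all genes). The median difference over the 51 was -0.12, with 31 below 0 and 20 above, beside 0.00 over all genes. The groups were apart and lower for 10 of the 51 and apart and higher for 8, beside 16.1% and 15.9% of all genes. Missing calls do not show that these genes were alike in both pools, since the arrays are few. Of 21 genes with several tested probe sets, 12 had probe sets on both sides of 0. Of the 21 tested genes named below, 12 changed sign with an array left out.

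Among 13 tested enzymes and mitochondrial carriers of glutamate, proline, ornithine and citrulline, 0 were called, 8 lay above 0 and the median was 0.21. Slc25a15, the carrier that exchanges ornithine and citrulline across the inner mitochondrial membrane, read 5243 and 9844 on the germ-free arrays, with 5396 and 5795 on the conventionalized ones, a difference of -0.36 ± 0.51 that was 0.09 without germ-free replicate 2. A far dimmer probe set of Slc25a15 differed by 0.98 ± 1.12. Nags, which makes the N-acetylglutamate that Cps1 needs, read 386 and 379 against 147 and 520 and differed by -0.40 ± 0.51, a value that was 0.41 without conventionalized replicate 1 and -1.21 without conventionalized replicate 2. Glud1, glutamate dehydrogenase, differed by -0.46 ± 0.44, and Got2, mitochondrial aspartate aminotransferase, by 0.29 ± 0.43. The next probe set of Got2 lay lower on both conventionalized arrays instead, at 204 and 224 against 183 and 45.5, a difference of -0.93 ± 0.79. Asns, asparagine synthetase, read 1045 and 1063 against 2765 and 2233, apart between groups, with a difference of 1.21 ± 0.42 that was not called (limma adjusted p = 0.336).

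The 6 tested genes of nitric oxide synthesis, agmatine or methylarginine breakdown, and antizyme inhibition had a median of -0.14, with 0 called. Agmat, agmatinase, differed by -0.24 ± 0.43, Nos1, the neuronal nitric oxide synthase, by 0.34 ± 0.46, Azin2, an antizyme inhibitor, by -0.35 ± 0.56, and Ddah2, which breaks down methylated arginine, by 0.75 ± 0.59. A dimmer probe set of Nos1 differed by -0.71 ± 1.11. Nos2, the inducible nitric oxide synthase, was not tested at 30.8 and 14.1 on the germ-free arrays, with 34.2 and 44.0 on the conventionalized ones.

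Of 13 tested polyamine genes beside Odc1, 0 were called and the median was -0.05. Oaz1, the antizyme that sends Odc1 protein to the proteasome, differed by -0.05 ± 0.61. Eif5a, the factor that carries a residue made from spermidine, differed by -0.00 ± 0.46, Azin1 by -0.70 ± 0.42 (0.07 without germ-free replicate 2) and Atp13a2, a lysosomal polyamine exporter, by 0.78 ± 0.42. The second probe set of Eif5a lay higher on both conventionalized arrays, by 0.66 ± 0.42.

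The 11 tested carriers of arginine, cystine and glutamine had a median of -0.23, with 0 called. Slc6a19, the brush-border carrier of neutral amino acids, read 2358 and 4070 on the germ-free arrays, with 1050 and 1859 on the conventionalized ones, a difference of -1.13 ± 0.42 (limma adjusted p = 0.484). Slc7a9, the light chain of the apical cystine and arginine carrier, differed by -0.78 ± 0.43, and its heavy chain Slc3a1 by -0.37 ± 0.42. Slc38a2, a glutamine carrier, differed by 0.09 ± 0.43.

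The 8 tested acylases and related hydrolases beside Acy1 had a median of -0.63, with 7 below 0 and 0 called. Naaladl1, a brush-border peptidase, read 1674 and 1425 on the germ-free arrays, with 293 and 1134 on the conventionalized ones, a difference of -1.36 ± 0.42 (limma adjusted p = 0.183), and was called at -2.28 without conventionalized replicate 2. Pm20d1, an N-acyl amino acid synthase and hydrolase, read 2347 and 2616 against 1409 and 1159 and differed by -0.94 ± 0.42, but its dimmer probe set differed by 1.01 ± 0.97. Aspa, aspartoacylase, differed by -0.11 ± 0.42, and Cndp2, a cytosolic dipeptidase, by -0.31 ± 0.74. The median of this list was 0.06 without conventionalized replicate 1.

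**Figure D3:**
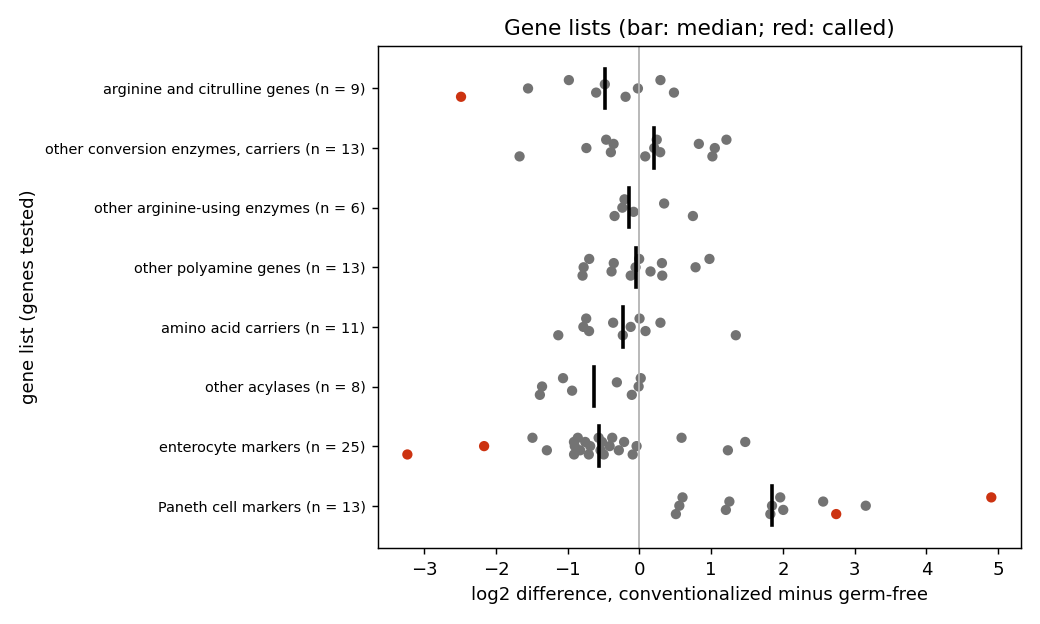
Log2 difference, conventionalized minus germ-free, of every tested gene of 8 lists, 1 point per gene at its brightest probe set, with a black bar at the list median and called genes in red. The row labelled other arginine-using enzymes also holds genes of agmatine and methylarginine breakdown and Azin2. The 5 pathway lists hold no called gene and have medians from -0.63 to 0.21; the enterocyte markers have a median of -0.57 and the Paneth cell markers one of 1.85.

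Markers of the labelled cell type and of others were read, and they do not show the captured material to be Paneth cells alone. Lyz1, the Paneth cell lysozyme, had signals from 24112 to 249594 and Defa31, an alpha-defensin, from 10553 to 245509, and all 13 tested Paneth markers lay above 0, with a median of 1.85 and 2 (Reg3g and Mptx1) called higher. Cps1, Otc and Arg2 are also expressed by absorptive enterocytes, whose markers were present on all arrays. Of 28 enterocyte markers 25 had a probe set of their own, all tested; 22 lay below 0, 2 (Cubn and Apoc3) were called lower, 0 were called higher and the median was -0.57. The marker with the highest mean signal, Fabp2, a fatty acid binding protein, lay higher on both conventionalized arrays and differed by 1.47 ± 1.03, while Apoa4 differed by 0.59 ± 0.81 and Apoa1 by -0.52 ± 0.78. The summed signal of the enterocyte list was 142828 and 253585 on the germ-free arrays, with 141158 and 309418 on the conventionalized ones, so the groups overlapped. That of the Paneth list was 82003 and 171636 against 379377 and 900283, though heights are not comparable between genes. The part of enterocyte RNA in the lower Arg2 and Acy1 signals was not tested. Leaving out germ-free replicate 1 gave an enterocyte median of -0.97, leaving out germ-free replicate 2 one of -0.26, and the same for the conventionalized replicates gave -0.39 (replicate 1) and -1.01 (replicate 2). The stroma list (median -0.50, 6 of 8 genes below 0) and the enteroendocrine list (median -0.24, 7 of 9 below 0) held 0 called genes. Goblet cell (0.53), stem and cycling cell (0.50), myeloid (0.40) and lymphoid (0.93) markers had medians above 0. Below 0 lay 3 of 10 goblet, 3 of 11 stem and cycling, 2 of 6 myeloid and 1 of 5 lymphoid genes. In the stem and cycling list these were Lgr5 (-0.86), Axin2 (-0.79) and Ascl2 (-0.22), each lower on both conventionalized arrays. The goblet list had groups apart and higher for 5 genes and apart and lower for 2. Retnlb, a resistin-like protein of goblet cells, was called higher at 3.53 ± 0.51, and so was Igha, the constant region of the IgA heavy chain among the lymphoid markers, at 2.44 ± 0.44; both were named because they were called, and the stem and myeloid lists held 0 called genes.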

How the data were processed

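Expression was measured in 4 arrays, 2 per group. The values deposited by the authors are linear intensities, 1 for each probe set on each array. Trimmed by 2% at both ends, every array has a mean of 250, so scaling by the authors was assumed; their software is not given in the sources used here. Scanner files, read for batches only, gave 1 chip lot, 1 scanner and 1 scan day. The number of arrays limits the precision.

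Intensities became log2(intensity + 32), with 32 taken as the smallest power of 2 over the 20th percentile of all values. Probe sets with a mean above the median of 113.9 were tested, leaving out 64 controls. limma 3.58.1 in R 4.3.3 (lmFit, eBayes with a variance trend) compared the groups. Its prior degrees of freedom were infinite and the residual ones 2. The fit was tested on simulated data. P-values measure amplification and array error, not the spread between mice.

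Symbols came from the platform annotation of 2016: 34958 probe sets named 1 gene, 932 several and 9211 none, and 34754 identifiers were found in a table of GRCm38.p6. The value table names no genome build, so no gene coordinates are given beyond the promoter windows. The 9 genes and all lists were chosen with earlier results of these data known, and the motifs after the values were seen. Genes named from a list are its called members or otherwise its 4 brightest, with Arg1, Nags and Nos2 in any case. Further named are up to 3 brightest markers per cell type, the stem and cycling markers below 0, and the 3 nearest profiles of Acy1 and Arg2. Alternatives were other pseudocounts, filters, scalings and variance models, a replicate block, the mean over probe sets, and each array left out.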

Additional observations from a re-analysis of the deposited data

How the results depend on the processing

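The median difference of the 9 genes, -0.48, kept its sign in every alternative run, from -0.63 without conventionalized replicate 1 to -0.28 without conventionalized replicate 2, and was -0.60 with quantile normalization. Calls were less stable. The count of 75 probe sets was 34 (14 higher, 20 lower) with quantile normalization, 22 (3 higher, 19 lower) with median centring, which moved the median of all tested probe sets to -0.10, and 0 without a variance trend, where 975 had an unadjusted p under 0.05. With 1 array left out it ran from 41 to 213, and the split moved too: 34 higher and 7 lower of 41 lacking germ-free replicate 2, 32 higher and 181 lower of 213 lacking conventionalized replicate 1, 22 and 24 of 46 lacking germ-free replicate 1, and 14 and 33 of 47 lacking conventionalized replicate 2. Of the 9 genes, 1 was called in the main setting and 0 with no filter, the brightest 25%, quantile normalization, the replicate block or no variance trend, and 0 to 1 with 1 array left out. Of the other pathway genes, 0 to 1 was called with 1 array left out. Sign changes among the 9 were seen for Cps1, Ass1, Asl, Oat and Odc1, each with an array left out, and for 12 of the 21 other pathway genes named, also with an array left out; Slc38a2 changed with median centring as well (-0.02). The cause of these shifts was not tested. The labels number the arrays 1 and 2 in each group, but the numbers name aliquots of different pools and do not pair them. With the replicate number as a block, limma called 30 probe sets. Deviations of same-numbered arrays had only a weak inverse correlation (-0.13 across probe sets), which gives no pairing. With the numbers crossed, chosen after seeing the data, the block called 228 probe sets, 2 of the 9 genes and 2 of the other pathway genes. The deposited values carry no depth. Fitted standard errors were larger for dim signals such as those of Acy1, Ass1 and Asl than for moderate ones. They were large at the brightest signals too, with 1.16 for Lyz1 and 1.03 for Fabp2.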
